A study of Sus scrofa with 20 samples.

Results

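The constitutive proteasome subunits were examined in caecal mucosa of 20 pigs. Members were all genes whose symbol in the platform annotation begins with PSM, a letter A to F and a number, with the immunoproteasome subunits PSMB8 and PSMB9 left out, and each gene was represented by its brightest probeset. The rule matched 39 of the annotated genes, of which 35 had values, out of 10638 gene symbols with values in the whole data set. The pigs were a Large White and Landrace cross from 5 litters, each named by its sow, and each litter gave a pair of each sex, made up of 1 pig of high feed efficiency (low residual feed intake, RFI) and 1 pig of low feed efficiency (high RFI). RFI is the intake of feed beyond what is predicted for the growth and body condition of a pig. Transcript abundance was read on 1 Affymetrix porcine snowball array per pig, so that 10 pigs of high and 10 pigs of low feed efficiency were compared. The labels name no genotype, treatment or age beside these groups. According to the methods, pigs were selected for divergent RFI within 1 herd trial, the mucosa was scraped off the caecal wall, and litters were penned together, so that litter and pen cannot be told apart.

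The 26S proteasome degrades proteins that carry ubiquitin chains. Its 20S core is a barrel of stacked rings, in which outer alpha rings (PSMA) gate the entry and inner beta rings (PSMB) hold the proteolytic sites, while the 19S cap on its ends binds ubiquitin, removes it and unfolds the protein with a ring of ATPases (PSMC) and a set of non-ATPase subunits (PSMD). Subunits are made in fixed proportions in the assembled particle, and in cells exposed to interferon gamma the inducible PSMB8, PSMB9 and PSMB10 replace the catalytic PSMB5, PSMB6 and PSMB7. The intestinal mucosa renews its epithelium continuously and is in contact with immune cells, and both kinds of cell use the proteasome, for protein turnover and for the supply of peptides to MHC class I.

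The label was checked against the genes that the rule returned. Of the 35 measured members, 12 were core subunits (PSMA2 to PSMA7, PSMB1 to PSMB5 and PSMB7) and 13 were cap subunits (PSMC1, PSMC2, PSMC4 and PSMC6 of the ATPase ring, PSMD1, PSMD2 and PSMD4 of the rest of the base, and PSMD3, PSMD6, PSMD7, PSMD8, PSMD11 and PSMD14 of the lid). The other members were not constitutive subunits in the strict sense. They comprised 2 chaperones of cap assembly (PSMD5 and PSMD9), 5 genes of activators and of an inhibitor (PSME1 to PSME4 and PSMF1), of which PSME1 and PSME2 are known to be inducible by interferon gamma, 2 tissue-specific core subunits (PSMA8, known from the testis, and PSMB11, known from the thymus) and PSMC3IP, a meiotic recombination factor that is not a proteasome subunit. Core and cap summaries below therefore use 25 genes. PSMB6, PSMC5, PSMD10 and PSMD12 were listed in the annotation but had no values in the table, and PSMA1, PSMB10, PSMC3 and PSMD13 were not analysed here, so that of the 3 catalytic subunits PSMB5 and PSMB7 were measured.

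Upper quartiles of the log2 values lay between 6.25 and 6.30, a likeness that quantile normalisation imposes on the arrays. The tissue label was checked against marker levels. KRT20, a keratin of mature colonocytes, was at 12.1, the mucin MUC2 of goblet cells at 10.2 and CDX2, a transcription factor of the hindgut epithelium, at 9.30 on the log2 scale, while AQP8, a water channel of mature colonocytes, was at 4.86. MYH11, the myosin of smooth muscle, was at 3.21, DES, the desmin of muscle, at 5.74 and COL1A1, a fibrillar collagen, at 5.17. COL1A1 does not stand for fibroblast and matrix markers as a list, of which 10 of 12 were measured. The mean level of that list lay between 8.068 (litter of sow 1410) and 8.396 (litter of sow 1417). Levels of different probesets also depend on the probes, so the share of connective tissue was not judged from these values. The leukocyte gene PTPRC was at 7.14. In a tissue of several cell types fewer cells of a type and less RNA per cell cannot be told apart. The first principal component of all arrays held 17.5% of the variance and followed the number that identifies each pig (401 to 440, meaning not given in the labels) with a Pearson r of 0.870 and a Spearman rho of 0.860 across 20 pigs.

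Most members were measured on bright probesets. Of the 35 members, 32 were above the median of the probeset means (4.77) and 26 were above the 75% quantile (6.24). Each member is the brightest probeset of its gene, while these bounds are those of all probesets. Core subunits had mean levels between 3.76 and 10.2 (median 8.83) and cap subunits between 5.36 and 9.44 (median 7.46). Such values of different probesets depend on the probes as well as on the transcript and were not compared with each other. PSMB1 and PSMA7, structural subunits of the beta and alpha rings, were measured at 10.2 ± 0.16 and 9.98 ± 0.16 (SD, n = 20). The lid subunit PSMD11, which links lid and core, was at 9.44 ± 0.16, and the base scaffold PSMD2 was at 9.04 ± 0.16. PSMB5, which carries the chymotrypsin-like activity of the constitutive core, was at 3.76 ± 0.30, and PSMA8 at 1.86 ± 0.27 was close to the bound of the filter on low values (1.62). PSMB11 was at 4.74 ± 0.28.

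Members varied less between pigs than most probesets. Their median SD was 0.249 against 0.296 over all probesets, and 25 of 35 members lay below that value of all probesets. The sets are unlike, since members are the brightest probesets of their genes and all probesets include dim ones. PSMB4, a structural beta subunit, had the smallest SD of the core (0.119) and PSMC2, an ATPase, the smallest of the cap (0.136). PSMA4 had the largest SD of the core (0.499) and PSMD3 of the cap (0.444), and the inhibitor PSMF1 ranged between 5.48 and 7.93 over the 20 pigs. All 35 members passed the filters in every test that follows.

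**Figure D1:**
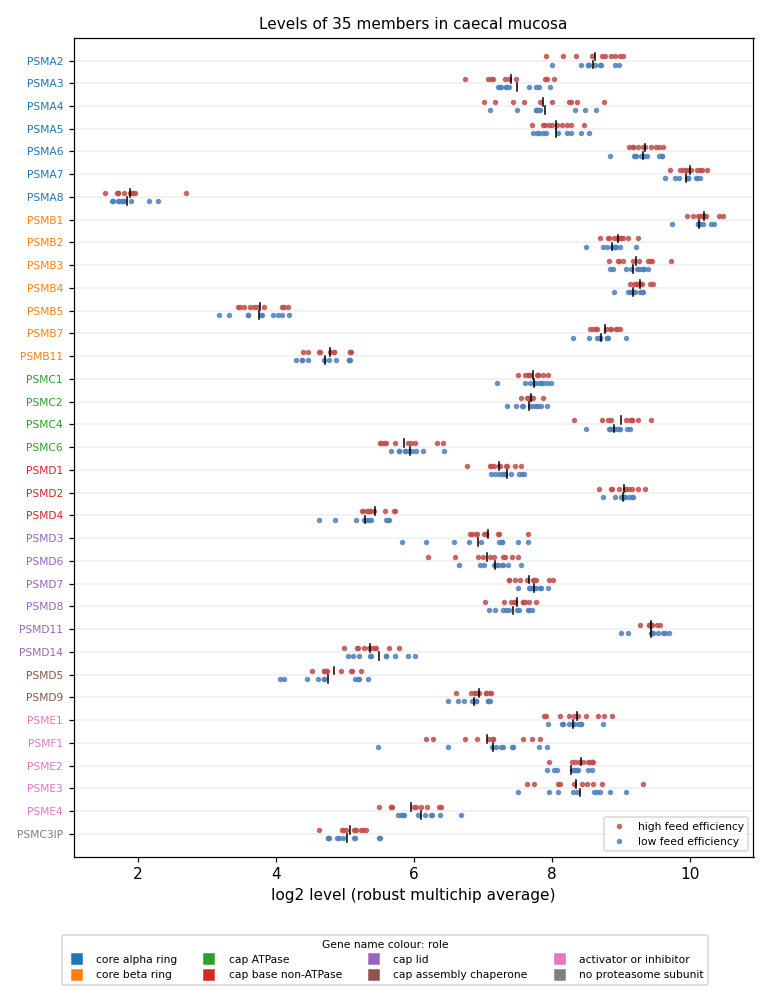
Log2 level (x axis) of each of 35 members (rows, grouped by role) in 10 pigs of high feed efficiency (red, upper points of a row) and 10 pigs of low feed efficiency (blue, lower points), with the group mean as a black tick. Points of both groups overlap in every row, and levels are to be compared within a row only.

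The main comparison asked whether proteasome transcripts differed between littermates of high and low feed efficiency. None of the 35 members passed an adjusted p under 0.05 (limma with sow as fixed factor), and 0 members had an unadjusted p under 0.05, where the background over 23140 probesets was 0% and 4.48%. The log2 difference, high minus low, was above 0 for 22 of 35 members (62.9%, background 51.1%), with a median of 0.04 and a range of -0.15 to 0.15. The 95% confidence interval lay within ±0.5 for 33 members and within ±0.25 for 12, so that the data bound most differences to under 0.5 on the log2 scale without showing equality. The exceptions were PSMD3 (-0.29 to 0.56) and PSMF1 (-0.67 to 0.51).

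In the beta ring, all 6 core members had a small positive difference (0.02 to 0.10), none of which passed the test. PSMB4, on chromosome 4 from 97835544 to 97837909 of Sscrofa11.1, had the smallest p of all members. Its level was 9.13, 9.25 and 9.46 (lowest, median and highest) in pigs of high and 8.91, 9.18 and 9.31 in pigs of low feed efficiency, so that the groups overlapped between 9.13 and 9.31. Of the 10 pairs of littermates of the same sex, 8 had the higher value in the efficient pig, and the difference was 0.10 ± 0.065 (SE; 1.07-fold; p = 0.144, limma adjusted p = 0.980). The catalytic subunit PSMB7, which carries the trypsin-like activity, was at 8.78 ± 0.16 in high-efficiency pigs and 8.71 ± 0.20 in low-efficiency pigs (SD, n = 10 each), with a difference of 0.07 ± 0.075 (SE) and 8 of 10 pairs higher. For PSMB5 the values were 3.77 ± 0.27 in high-efficiency pigs and 3.75 ± 0.34 in low-efficiency pigs, a difference of 0.02 ± 0.13 (SE). The 6 alpha subunits were divided, with 3 above and 3 below 0 and differences between -0.09 (PSMA3) and 0.06 (PSMA7).

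In the cap, 6 differences were above and 7 below 0. PSMD4, the ubiquitin receptor of the base, was at 5.25, 5.37 and 5.73 (lowest, median and highest) in high-efficiency pigs and at 4.62, 5.34 and 5.64 in low-efficiency pigs. The medians were close and the low group reached further down, and the difference was 0.15 ± 0.12 (SE; adjusted p = 0.980). PSMC4, an ATPase, differed by 0.09 ± 0.081 (SE) with 5 of 10 pairs higher. This value rests on the brightest probeset, since the mean over the PSMC4 probesets differed by -0.03. On the negative side stood PSMD1, a scaffold subunit of the base, at 7.23 ± 0.22 in high-efficiency pigs and 7.35 ± 0.17 in low-efficiency pigs (SD, n = 10 each), higher in 2 of 10 pairs, with a difference of -0.12 ± 0.097 (SE; adjusted p = 0.980). PSMD14, the deubiquitinase of the lid, differed by -0.13 ± 0.13 and its lid partner PSMD7 by -0.07 ± 0.086 (SE).

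Among activators and the inhibitor, PSME2, a subunit of the interferon-inducible PA28 ring, was at 7.96, 8.49 and 8.60 (lowest, median and highest) in high-efficiency pigs and at 7.93, 8.33 and 8.58 in low-efficiency pigs, and was higher in 8 of 10 pairs (difference 0.14 ± 0.10 SE, 1.11-fold, adjusted p = 0.980). Its partner PSME1 differed by 0.06 ± 0.13 (SE). PSME4, which encodes the activator PA200, had the lowest difference of all members, -0.15 ± 0.12 (SE; adjusted p = 0.980), with 5.96 ± 0.31 in high-efficiency pigs and 6.11 ± 0.30 in low-efficiency pigs (SD, n = 10 each). PSME3, the nuclear PA28 gamma, and PSMF1 differed by -0.06 ± 0.19 and -0.08 ± 0.28 (SE). PSMA8 and PSMB11 differed by 0.04 ± 0.12 and 0.08 ± 0.091 (SE). As a comparator, the immunoproteasome subunit PSMB9 was at 8.93, 9.37 and 9.57 (lowest, median and highest) in high-efficiency pigs and at 8.70, 9.07 and 9.51 in low-efficiency pigs, and its difference of 0.24 ± 0.12 (SE, p = 0.0521, adjusted p = 0.980) was numerically above that of every member. PSMB8 was represented by 1 dim probeset with large spread (4.28 ± 0.86 in high-efficiency pigs and 3.56 ± 0.92 in low-efficiency pigs, SD, n = 10 each) and was removed by the filter on SD.

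Of the 11 members with more than 1 probeset, 5 (PSMA4, PSMA5, PSMA7, PSMB2 and PSMC4) had differences of both signs among their probesets. Leaving out the litter of sow 1435 gave 5 members with an unadjusted p under 0.05, all with a negative difference (PSMA3, PSMC6, PSMD1, PSMD7 and PSME4, log2 differences between -0.29 and -0.19, adjusted p of at least 0.557), where 8.38% of all probesets did so. Of the markers of macrophages and dendritic cells, 7 of 12 were measured, none under the low bound. All 7 had positive differences with all litters (background 51.1%), 5 had an unadjusted p under 0.05 (background 4.48%) and 0 passed the adjustment. Their mean level ranged between 6.66 and 7.19 in high-efficiency pigs and between 6.54 and 6.99 in low-efficiency pigs. Other lists also lay mostly above 0, with 10 of 10 fibroblast and matrix markers (1 with an unadjusted p under 0.05), 6 of 6 plasma cell markers (2) and 9 of 10 T and natural killer cell markers (3). Above 0 were 2 of 7 mature colonocyte and 4 of 11 crypt and cycling cell markers. The part of these markers in the values of PSME2 and PSMB9 was not tested.

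**Figure D2:**
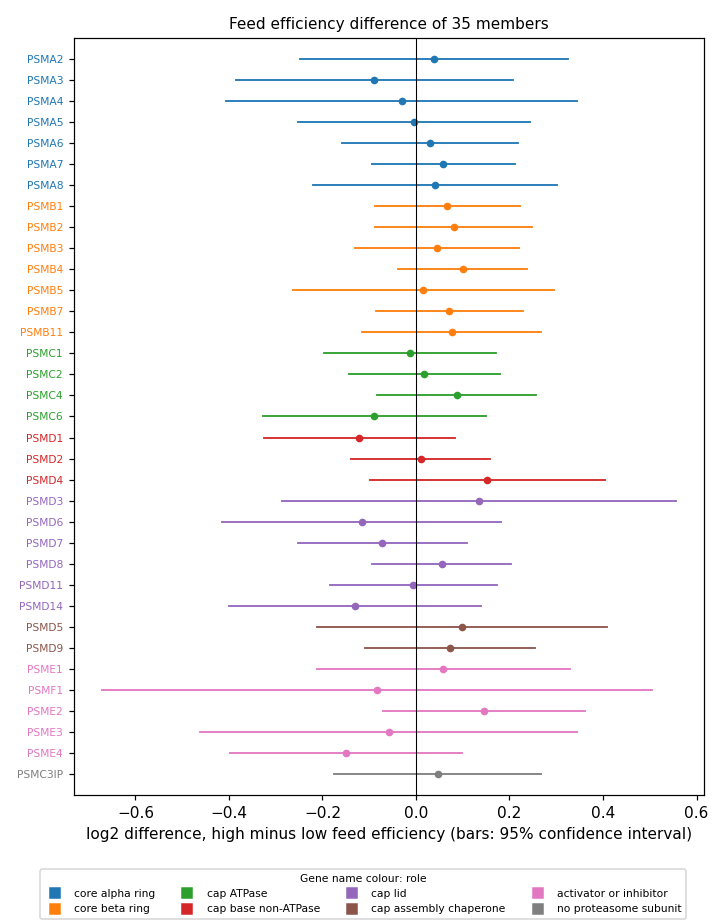
Log2 difference of high minus low feed efficiency (x axis, points, with 95% confidence intervals as bars) for each of 35 members (rows, coloured by role), from the model with sow. Every interval includes 0, and the interval of PSMF1 is the widest, with bounds of -0.67 and 0.51.

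The sexes were compared within litter and efficiency group. No member passed an adjusted p under 0.05 (background 0%), and 1 member, 2.86%, had an unadjusted p under 0.05 (background 4.29%). The difference, male minus female, was above 0 for 7 of 35 members (20%, background 52.9%) and below 0 for 11 of 12 core and 10 of 13 cap subunits, with medians of -0.05 in both classes. Subunits that vary together across pigs, as described below, do not count as separate observations. PSMD11 had the smallest p. It was at 9.01, 9.43 and 9.54 (lowest, median and highest) in males and at 9.41, 9.50 and 9.70 in females, so that the lowest values were those of males and the highest those of females, and the difference was -0.17 ± 0.075 (SE; p = 0.0378, adjusted p = 0.9999). The lid subunit PSMD3 differed by -0.33 ± 0.19 and PSMC3IP by -0.14 ± 0.10 (SE). Each of these values had an adjusted p of 0.9999.

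Whether the feed efficiency difference itself differed between males and females was tested as an interaction. No member passed the adjustment (background 0%) and 1 member, 2.86%, had an unadjusted p under 0.05 (background 4.11%). This was PSMD3, on chromosome 12 from 22344751 to 22360550. In the male pairs, the high- and low-efficiency pigs were at 7.65 and 5.83 in the litter of sow 1406, at 6.90 and 6.81 in that of sow 1410, at 7.04 and 6.58 in that of sow 1411, at 7.24 and 7.27 in that of sow 1417 and at 6.84 and 6.18 in that of sow 1435. In the female pairs they were at 6.92 and 7.51, 7.21 and 6.98, 7.04 and 7.66, 7.02 and 7.23, and 6.81 and 7.28 in the same order of litters. The high-efficiency male was thus higher in 4 of 5 litters (mean difference 0.60) and the high-efficiency female in 1 of 5 (mean difference -0.33). The interaction was 0.93 ± 0.31 (SE; p = 0.00915, adjusted p = 0.999), was lowest without the litter of sow 1406 (0.56, p = 0.0583), whose low-efficiency male had the lowest level, and stayed between 0.70 and 1.11 when single pigs were left out. PSMD6, another lid subunit, and the chaperone PSMD9 followed with 0.54 ± 0.27 and 0.25 ± 0.17 (SE), each with an adjusted p of 0.999.

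The litters were compared over all 4 pigs of each sow. No member passed an adjusted p under 0.05 in the moderated F test over sows (background 0.126%), and 6 of 35 members (17.1%) had an unadjusted p under 0.05, against a background of 16.1% of 23837 probesets. The members therefore did not stand apart from other transcripts in the share that varied with litter. The litter of sow 1435 had the lowest mean of 5 litters for 12 of 25 core and cap subunits (48%, against 29.4% of all probesets) and for all 6 members with the largest F. The litter of sow 1417 had the highest mean for 11 of 25 (44%, against 14.5% of all probesets). The subunits vary together, so these counts are a description.

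PSMC4, on chromosome 6 from 48406237 to 48414470, had the largest F (6.50, p = 0.0026, adjusted p = 0.142). Its 4 pigs were at 8.90, 8.99, 9.25 and 9.44 in the litter of sow 1406 and at 8.32, 8.50, 8.73 and 8.83 in the litter of sow 1435, so that these litters did not overlap. The litter of sow 1417 lay between them in a narrow band of 8.82, 8.84, 8.85 and 8.86, and the litters of sows 1410 and 1411 averaged 9.04 and 9.13. These values are those of the brightest PSMC4 probeset. The other PSMC4 probesets, at mean levels of 8.69, 7.61 and 4.99, had F = 2.51, 2.78 and 0.058 (moderated F test without the filter, unadjusted p = 0.0823, 0.0625 and 0.993). PSMD8, a lid subunit on the same chromosome from 47289891 to 47297059, showed the same order of its extremes (F = 6.34, adjusted p = 0.144), with 7.49, 7.65, 7.67 and 7.77 in the litter of sow 1406 and 7.03, 7.09, 7.17 and 7.31 in the litter of sow 1435. PSMB3, a structural beta subunit, had 9.26, 9.32, 9.45 and 9.72 in the litter of sow 1406 and 8.83, 8.84, 8.97 and 9.14 in that of sow 1435 (F = 4.73, adjusted p = 0.205).

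The thymic subunit PSMB11, measured at a low level, had 4.87, 5.06, 5.07 and 5.08 in the litter of sow 1411 and 4.29, 4.37, 4.39 and 4.46 in that of sow 1435 (F = 5.53, adjusted p = 0.172). PSMA4, an alpha subunit, had its highest mean in the litter of sow 1417 (8.30 ± 0.46, SD, n = 4) and its lowest in that of sow 1435 (7.41 ± 0.33), a difference of 0.89 (F = 3.14, adjusted p = 0.297). The other PSMA4 probeset, at a mean level of 7.78, had F = 0.85 (moderated F test without the filter, unadjusted p = 0.514). Its r with the brightest PSMA4 probeset across pigs was 0.21. PSMD2 had 9.19 ± 0.041 in the litter of sow 1406 and 8.83 ± 0.16 in that of sow 1435 (SD, n = 4 each; F = 3.03, adjusted p = 0.308). When the litter of sow 1435 was left out, 1 member (PSME4) had an unadjusted p under 0.05, where 11.7% of all probesets did so. With pig number in the model the count was 1 as well (PSMB5), where 7.96% of all probesets did so.

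Markers of some cell types were examined by litter as well. Of the B cell markers, 6 of 8 were measured, none under the low bound, 1 was called after adjustment (MS4A1, the B cell antigen CD20, F = 14.2, adjusted p = 0.0397), and an unadjusted p under 0.05 was found for 5, with a mean level of 6.31 in the litter of sow 1406, 6.62 in that of sow 1410, 7.71 in that of sow 1411, 7.08 in that of sow 1417 and 7.35 in that of sow 1435. Of the goblet cell markers, 5 of 8 were measured, and their mean level was 8.95 in the litter of sow 1406 and 8.52 in that of sow 1435, the lowest of the litters. None of the goblet cell markers was called after adjustment, and 1 of 5 had an unadjusted p under 0.05, as did 0 of 8 mature colonocyte markers and 0 of 11 crypt and cycling cell markers. The same held for 3 of 6 plasma cell and 2 of 6 smooth muscle markers. Over all probesets, 16.1% had an unadjusted p under 0.05 by litter and 0.126% were called. The part of these markers in the litter values of the members was not tested.

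**Figure D3:**
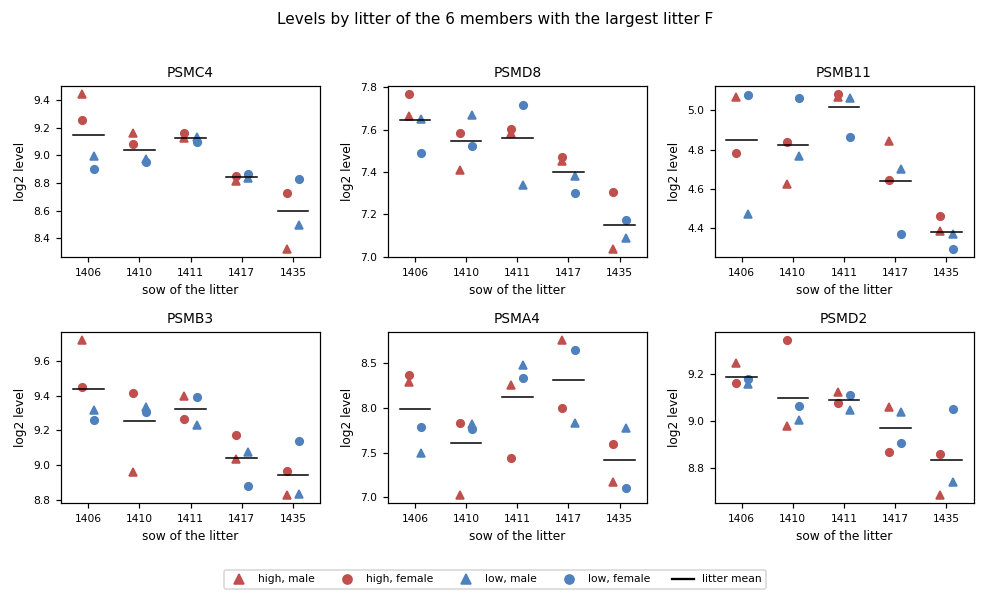
Log2 level (y axis) of the 6 members with the largest litter F in each pig by litter (x axis, number of the sow), with triangles for males, circles for females, red for high and blue for low feed efficiency and a black line for the litter mean. In all 6 panels the litter of sow 1435 has the lowest mean, as for PSMC4 with 8.60 against 9.15 in the litter of sow 1406.

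Because the leading axis of variation between arrays followed the pig number, the number was tested as well, although what it stands for is unknown and its values were partly shared within litters. With sow, feed efficiency and sex in the model, no member passed the adjustment (background 0.0755%) and 4 of 35 (11.4%) had an unadjusted p under 0.05 (background 17.9%). The slope was above 0 for 20 members (57.1%, background 42%). PSMB5 had a slope of -0.33 ± 0.093 per 10 numbers (SE; adjusted p = 0.117), PSME4 of 0.28 ± 0.091 (adjusted p = 0.145) and PSME3 of -0.43 ± 0.15 (adjusted p = 0.174). PSMD7 was the fourth (0.17 ± 0.072, adjusted p = 0.234).

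Without the sow term, which leaves the number to stand for litter as well, 11 of 35 members passed the adjustment (background 20.1%). Of these, PSMA3, PSMC6, PSMD7 and PSME4 rose with the number (slopes of 0.09 to 0.16) and PSMA7, PSMB3, PSMB11, PSMC4, PSMD2, PSMD8 and PSME3 fell (slopes of -0.21 to -0.08). Both directions thus included core and cap subunits. For the base scaffold PSMD2, the 3 pigs with the lowest numbers (401, 402 and 403) were at 9.34, 9.25 and 9.16, and the 3 with the highest (436, 438 and 440) were at 8.87, 8.69 and 8.86. PSMC6, an ATPase, ran the other way with 5.51, 5.59 and 5.92 in the first and 5.92, 6.42 and 6.34 in the last of these pigs.

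The correlation of members with principal component 1 had both signs as well. The component follows the pig number (r = 0.870), so this is not a second observation beside the slopes on the number. An r over 0.6 in size was found for 13 of 35 members. Of these, 7 were positive (PSMA3, PSMA6, PSMC6, PSMD1, PSMD6, PSMD7 and PSME4, the last with r = 0.89). The other 6 were negative (PSMA7, PSMB3, PSMC4, PSMD2, PSMD8 and PSMB11, with r = -0.85 for PSMD2). The median size of r was 0.55 for the members and 0.42 for all 10400 named genes past the low filter, of which 26.8% exceeded 0.6. The component is computed from the same arrays, so that these are descriptions across 20 pigs.

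**Figure D4:**
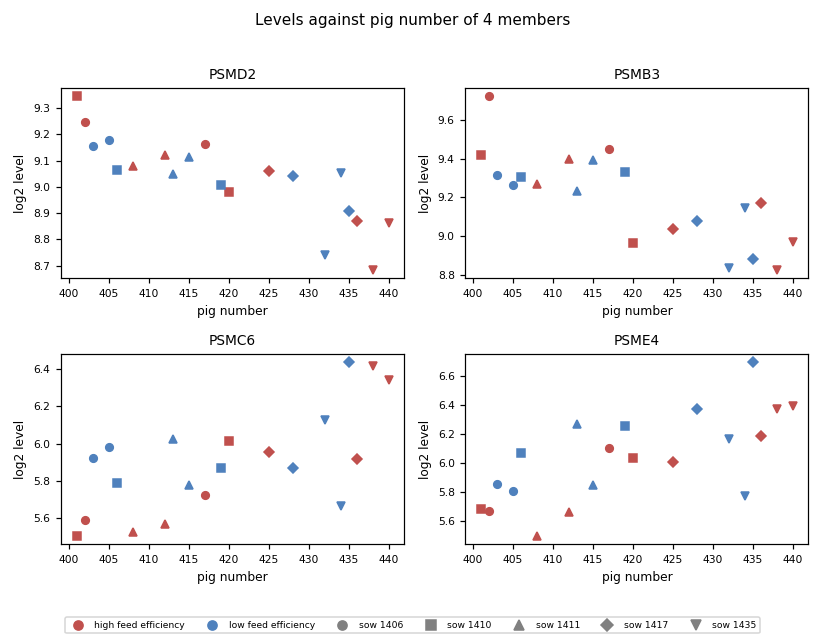
Log2 level (y axis) against pig number (x axis) for PSMD2, PSMB3, PSMC6 and PSME4, the 2 members with the lowest and the 2 with the highest r with principal component 1, with red for high and blue for low feed efficiency and a symbol for each sow. PSMD2 and PSMB3 are lower and PSMC6 and PSME4 higher at high numbers, and red and blue points are mixed along the axis.

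Co-variation across pigs asked whether subunits of 1 particle were measured at levels that moved together, and whether core and cap formed separate groups. The median Pearson r over pairs of genes was 0.27 within the core (66 pairs), 0.23 within the cap (78 pairs) and 0.28 between core and cap (156 pairs), against 0.015 over pairs of all named genes. The value between the classes was as large as that within them, so that core and cap were not separate groups by the median of the unadjusted values. Of the 300 pairs, 52 (17.3%) had r above 0.6 and 5 (1.67%) below -0.6, where 2.26% and 1.90% of pairs of all named genes did so. The share above 0.6 was 24.2% within the core, 14.1% within the cap and 16.0% between core and cap. Genes of 1 array share the tissue sample and the normalisation, and pairs share genes, so no test was made. The named genes include many dimmer than most subunits, and no background of like level was taken. After removal of sow, feed efficiency and sex the medians were 0.32, 0.23 and 0.23 within the core, within the cap and between them, and after removal of principal component 1 they were 0.44, 0.34 and 0.35. In both settings the value within the core was above that between the classes. With the second brightest probeset in place of the brightest for the members that had one, the medians were -0.02 within the core and 0.08 between core and cap. In that setting members with a single probeset kept it, and some of the probesets put in place were dim (PSMA5 at 2.01). Without the litter of sow 1435, the median within the cap was 0.04.

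Some of the closest pairs crossed the boundary of the subcomplexes. PSMB2 and PSMB7, which sit in the same beta ring, had r = 0.84, and PSMB4 correlated with both (0.79 each). PSMB3 of the core and PSMD8 of the lid had r = 0.84, which was 0.57 after removal of sow, feed efficiency and sex. PSMC4 and PSMD8 had r = 0.80, and 0.22 after that removal. PSMD1 and PSMD7 had r = 0.81, and 0.84 after removal. The lowest value was that of PSMB3 with PSMC6 (r = -0.80), followed by PSMC6 with PSMD2 (r = -0.77), and after removal of principal component 1 these were -0.40 and -0.21. PSMD7 and PSMD14, which form a dimer in the lid, had r = 0.50.

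By their median r with the other core and cap subunits, PSMC2 (0.42), PSMB2 (0.42) and PSMB7 (0.39) were nearest to the rest, whereas PSMC6 (-0.19), PSMB5 (-0.07) and PSMD1 (-0.04) were farthest. When the core and cap subunits with r over 0.6 in size with principal component 1 were set apart, a choice made after their values were seen, PSMA3, PSMA6, PSMC6, PSMD1, PSMD6 and PSMD7 had a median r of 0.72 among themselves, PSMA7, PSMB3, PSMC4, PSMD2 and PSMD8 a median r of 0.79, and pairs between these sets ranged between -0.80 and -0.28. Each set held 2 core subunits beside its cap subunits, and the remaining core and cap subunits were in neither set. Genes picked for a strong r with 1 component are bound to correlate by their signs, so these values partly follow from the choice.

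**Figure D5:**
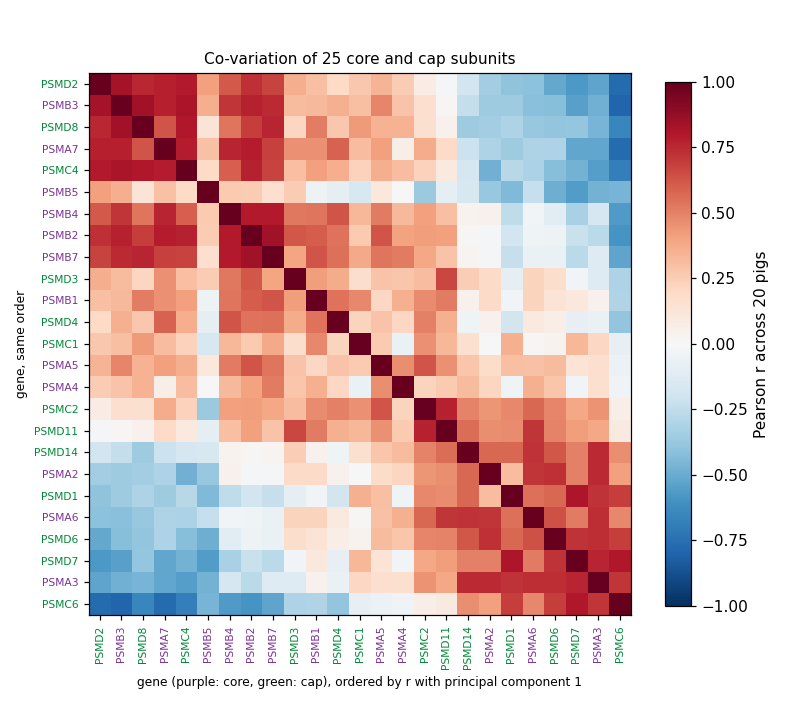
Pearson r across 20 pigs (colour, red for positive and blue for negative) for each pair of 25 core (purple names) and cap (green names) subunits, with genes on both axes ordered by their r with principal component 1. Red blocks at both ends are the sets with median r of 0.79 and 0.72, and core and cap names are mixed in both. Blue corners are the negative values between them, down to -0.80 for PSMB3 with PSMC6. The sets were chosen and the genes ordered by the same component, so the blocks partly follow from that choice.

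Genes outside core and cap behaved differently from each other. PSMB9 correlated with PSME2 (r = 0.79, and 0.85 after removal of sow, feed efficiency and sex), more closely than with any member of core or cap, for which its median r was 0.39 in the core (12 of 12 positive) and 0.16 in the cap. PSME1 correlated with PSME2 at r = 0.24, although both proteins form 1 ring and their genes lie next to each other on chromosome 7 (from 75161830 to 75164531 and from 75154570 to 75157871). The 2 probesets of PSME1 had r = -0.14 with each other. PSME4 correlated with PSMA3 and PSMC6 (r = 0.83 each), which were 0.47 and 0.33 after removal of principal component 1. PSME3 had a median r of -0.18 with the core and -0.33 with the cap. The chaperone PSMD5 had a median r of 0.38 with the core and PSMD9 of -0.12. Over 25 pairs of probesets of the same member, the median r was 0.41, with a range of -0.42 (PSMC4) to 0.95 (PSMA7).

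A score per pig, the mean over subunits of the log2 value less its mean over all pigs, summarised each class. The core score was -0.19, 0.07 and 0.14 (lowest, median and highest) in pigs of high and -0.24, -0.01 and 0.18 in pigs of low feed efficiency, a difference of 0.03 with 6 of 10 pairs higher. The cap score was -0.14, -0.01 and 0.10 in high-efficiency pigs and -0.31, 0.04 and 0.17 in low-efficiency pigs, a difference of -0.01 with 3 of 10 pairs higher. Both differences were smaller than the SD over pairs (0.18 for the core and 0.19 for the cap). The scores correlated with r = 0.70 (rho = 0.64) across 20 pigs, and with 0.63 without the 2 pigs farthest from the median core score. By litter, both were lowest in that of sow 1435 (-0.11 ± 0.11 for the core and -0.07 ± 0.17 for the cap, SD, n = 4), against 0.06 ± 0.076 and 0.07 ± 0.068 in that of sow 1417, whose pigs overlapped with those of sow 1435 in both scores.

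The named genes outside the complex with the highest r with the core score were OSGEP, an enzyme of tRNA modification (0.82), CENPA, the centromeric histone (0.77), TUBB, a beta tubulin (0.74), NOP2, a factor of ribosome synthesis (0.74), and UBE2L3, a ubiquitin-conjugating enzyme (0.74). For the cap score these were RRM1, a subunit of ribonucleotide reductase (0.81), GARS, the glycyl-tRNA synthetase (0.80), NBAS (0.79), FAM54A (0.79) and HNRNPC, which binds nascent RNA (0.78). They are the highest of 10400 genes over 20 pigs, so the values are a description of these arrays. A list of crypt and cycling cell genes, of which 11 of 12 were measured and none was under the low bound, correlated with the core score at r = 0.58 and with the cap score at r = 0.50. Its mean level ranged between 6.49 and 6.90 in high-efficiency pigs and between 6.55 and 7.05 in low-efficiency pigs. The corresponding r for mature colonocyte markers (8 of 16 measured) was -0.34 and -0.36. The part of these markers in the scores was not tested.

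Genes that act with the proteasome showed no call for feed efficiency in any of 5 lists, where 0% of all 23140 probesets were called. Over all probesets, 51.1% of the differences were above 0. Of the immunoproteasome and interferon gamma response genes, 9 of 13 were measured and 7 tested, 6 were above and 1 below 0 (median 0.20), and TAP2, a subunit of the peptide transporter, had the smallest p (0.20 ± 0.092 SE, adjusted p = 0.980), followed by PSMB9. Of the assembly factors and other cap proteins, 6 of 15 were measured, of which 5 were above 0 (median 0.06), with PSMG2, an assembly chaperone, at -0.14 ± 0.12 and the ubiquitin receptor ADRM1 at 0.06 ± 0.080 (SE). Of the ubiquitin and conjugation genes, 13 of 20 were measured and 4 were above 0 (median -0.04), with RBX1, a ring subunit of cullin ligases, at 0.23 ± 0.15 and UBE2D3, a conjugating enzyme, at -0.09 ± 0.064. Of the shuttle factors and deubiquitinases 7 of 16 were measured and 2 were above 0 (median -0.05), with UBQLN2 at -0.12 ± 0.083 and NPLOC4 at -0.13 ± 0.11. Of the transcription factors of proteasome genes and their partners, 5 of 12 were measured and 2 were above 0 (median -0.01), with NFYA at -0.10 ± 0.10 and BACH1 at -0.06 ± 0.093.

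None of these lists had a call by litter or by pig number with sow in the model. Over all probesets the called shares were 0.126% by litter and 0.0755% by pig number, so few calls could occur in any list. By litter the smallest p values were those of UBD, a ubiquitin-like modifier induced by interferon gamma (F = 6.46, adjusted p = 0.143), and of the assembly chaperone PSMG4 (F = 6.44, adjusted p = 0.144). By pig number, 5 of 13 ubiquitin and conjugation genes (4 with a positive slope) and 3 of 7 shuttle factors and deubiquitinases (all positive) had an unadjusted p under 0.05, where 17.9% of all probesets did so and 42% of all slopes were above 0. The smallest p values were those of FAF1, a cofactor of the unfoldase VCP (slope 0.31 ± 0.063 per 10 numbers, SE, adjusted p = 0.0740), and the conjugating enzyme UBE2D1 (0.46 ± 0.12, adjusted p = 0.106). The mean level of the ubiquitin list correlated with principal component 1 at r = 0.89, that of the transcription list at 0.82 and that of the assembly list at -0.49. With the core score the ubiquitin list had r = 0.11 and with the cap score 0.41.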

How the data were processed

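The deposited values are on the log2 scale and were made by the authors with robust multichip averaging (background correction, quantile normalisation, probe summary) with a custom layout on Sscrofa11.1, in which differences common to all transcripts of an array are removed and those of dim probesets compressed. The submitters' processing notes name GCOS 1.1.1. Of 47845 listed probesets, 25092 had values. Symbols came from the platform annotation (1 symbol for 16361, several for 0, none for 8731), gene positions from RefSeq. The symbols were assigned before the custom layout was made, so a symbol may be outdated for some probesets. All columns were matched to a pig.

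Models were fitted with limma 3.58.1 (R 4.3.3) across all probesets, with Benjamini-Hochberg adjustment over all of them and two-sided tests. As in the study's methods, probesets with a mean under the 5% quantile (1.62) were removed, and for feed efficiency and interaction also those whose SD exceeded the 95% quantile in each of the groups, leaving 23837 and 23140. Feed efficiency was fitted with sow, litter with feed efficiency and sex, sex with sow and feed efficiency, and pig number with all 3. Slaughter batch, which is in the study's model, was not analysed here since the labels do not give it. Pigs are separate animals, and their number limits the precision. The fits were tested on simulated data. Figures used matplotlib 3.10.9.

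Members and gene lists were chosen with earlier results of these data known. Named genes are the catalytic, interferon-inducible, activator, inhibitor and tissue-specific members, with PSMB8 and PSMB9 as comparators, the 4 smallest p in each direction for feed efficiency, the 6 largest F for litter, the 3 smallest p for sex, interaction and pig number, the 3 highest and 3 lowest median r, the 5 other genes nearest to each score, and the 2 smallest p per list.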

Additional observations from a re-analysis of the deposited data

Results flagged for a closer look

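Among 88 groups of 10 pigs or litters of 4 pigs examined for a sample far from the others, 8 held one, where chance gives about 5% of groups. In pigs of high feed efficiency, PSMA8 was at 2.69 in replicate 3, with the nearest other pig at 1.96, PSMC3IP was at 4.63 in replicate 6 (nearest other 4.95), PSMD3 was at 7.65 in replicate 2 (nearest other 7.24), and PSME2 was at 7.96 in replicate 6 (nearest other 8.29). In pigs of low feed efficiency, PSMB4 was at 8.91 (nearest other 9.10) and PSMC4 at 8.50 (nearest other 8.83), both in replicate 8, a male of the litter of sow 1435 that also had the lowest core and cap scores (-0.24 and -0.31). Within litters, PSMB11 was at 4.87 in low feed efficiency replicate 5 of the litter of sow 1411 (nearest other 5.06), and PSMA4 was at 7.02 in high feed efficiency replicate 6 of the litter of sow 1410 (nearest other 7.77).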

How the results depend on the processing

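The replicate numbers pair no samples, but each sow and sex gave 1 high- and 1 low-efficiency pig. With this pair as a fixed block in place of the sow, chosen after seeing the data, 0 members had an adjusted and 0 an unadjusted p under 0.05 for feed efficiency (0% and 4.59% of all probesets). The count of members with an adjusted p under 0.05 was 0 for feed efficiency, litter, sex and interaction under all alternatives run, and for pig number it was 0 except for 11 without the sow term. Unadjusted counts moved by over 1.5 times as follows, and the cause was not tested. Without the litter of sow 1435, they were 5 for feed efficiency (0 with all litters), 1 for litter (6 with all) and 2 for the interaction (1 with all). The shares of all probesets were then 8.38%, 11.7% and 3.99%. For litter the count was 1 with pig number added (7.96% of all probesets) and 1 with principal component 1 added (8.49% of all probesets), the last chosen after seeing the data. For sex (1 with all pigs) it was 0 without the litters of sows 1406, 1410, 1417 or 1435 and 2 without that of sow 1411. For pig number (4 with all) it was 7 without the litter of sow 1410 (16.0% of all probesets) and 18 without the sow term (36.3%), against 17.9% with all litters and sow. When single pigs were left out, unadjusted counts ranged between 0 and 0 for feed efficiency, 4 and 8 for litter, 0 and 2 for sex, 1 and 2 for the interaction and 3 and 6 for pig number. In the same order, the shares of all probesets ranged between 3.76% and 6.29%, 12.3% and 18.9%, 3.75% and 5.18%, 3.47% and 4.67%, and 12.4% and 19.0%. The median r within the core (0.27) was 0.34 with pig number also removed, 0.44 after removal of principal component 1, 0.15 over the mean of all probesets of a gene and -0.015 over second brightest probesets. Within the cap (0.23) it was 0.042 without the litter of sow 1435, and between core and cap (0.28) it was 0.080 over second brightest probesets. With single pigs left out, these medians lay between 0.23 and 0.29 within the core, 0.07 and 0.28 within the cap and 0.15 and 0.30 between them. The feed efficiency difference of PSMC4 was -0.030 over the mean of all its probesets. The deposited values hold no background signal or probe-level data, so how far PSMB5, PSMB8, PSMB11 and PSMA8 stand above background is unknown.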
